A study of Rattus norvegicus with 7 samples.

Results

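The 2 arms of the miR-193a hairpin, rno-miR-193a-5p and rno-miR-193a-3p, were followed across 7 arrays of cells labelled as rat primary skeletal muscle cells. So was rno-miR-365-3p, which is encoded in the neighbouring hairpin. These are 3 of the 719 miRNAs on the array, measured by 8 of its 1730 probes. They were found by their names in the array design and were chosen by measured values: both miR-193a arms lean up with interleukin-6 (IL-6). Their differences between IL-6 and control are therefore a description, given without a test. All 3 were among the 181 miRNAs that were tested, those that all arrays of the control group, the IL-6 group or both had detected.

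The cells came from limb muscle of newborn rats, were bought frozen at an early passage, and were grown to near confluence before a switch to low-serum medium that starts myogenic differentiation. The control group was untreated (3 samples) and the other group had recombinant IL-6, a cytokine released by contracting muscle, at 1 ng/ml (4 samples), both taken on day 11 of differentiation. The titles and the series design give these groups; the growth text on the control samples also names IL-6. Total RNA of each sample was labelled with Cy3 and hybridised to its own 1-colour array. Whether replicates were separate cultures is not stated in the labels, so the SDs and p-values reflect no more than the spread of these samples, which may be technical.

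miRNAs are short RNAs cut from hairpin precursors, whose seed near the 5′ end pairs with target messages and lowers their output. The related cluster of miR-193b and miR-365 is known for its part in the choice of precursor cells between brown fat and muscle: it is induced in brown adipocyte differentiation and represses regulators that would turn the cells towards muscle. miR-193a-3p shares the seed of miR-193b-3p, while the 5p arm carries another seed, and miR-193a is also known as a regulator of growth signalling in tumours.

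The mature sequences are shown first, because the 3 miRNAs are read by different probes and pair with different targets. They are from RefSeq (GRCr8, chromosome 10, plus strand), 5′ to 3′, with the seed, bases 2 to 8, in capitals.
miR-193a-5p: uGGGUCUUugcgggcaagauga
miR-193a-3p: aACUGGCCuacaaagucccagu
miR-365-3p: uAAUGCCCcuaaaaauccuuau
miR-193b-3p: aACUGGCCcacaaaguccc
Each of the 3 measured miRNAs is 22 bases long, and no seed is shared among them. Of the 719 miRNAs on the array, 651 matched the RefSeq table by name, and none of these shares a seed with any of the 3. In the table itself, miR-193b-3p alone shares one, that of miR-193a-3p. It is given there with 19 bases, and 1 of these differs from miR-193a-3p: U9C, with the base of miR-193a-3p first and positions counted from its 5′ end. Reading on along the Mir193b hairpin to 22 bases adds A20G and G21C. miR-193b-3p was not analysed here.

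Both arms of miR-193a come from 1 precursor, so a hairpin is shown for each locus, with the mature arms in capitals.
Mir193: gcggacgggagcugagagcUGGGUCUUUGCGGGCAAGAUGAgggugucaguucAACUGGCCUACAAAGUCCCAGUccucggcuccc
Mir365b: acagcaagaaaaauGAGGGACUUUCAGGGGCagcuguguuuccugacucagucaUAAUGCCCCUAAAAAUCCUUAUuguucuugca
Both are 86 bases long. In the build of the array files, rn4, the probe for miR-193a-5p lies at chr10:65901075-65901088, that for miR-193a-3p at chr10:65901106-65901122 and that for miR-365-3p at chr10:65915004-65915023. The last base of the miR-193a-3p probes is 13.8 kb from the first base of the miR-365 probes. In the RefSeq gene table (GRCr8), 0 genes lie wholly between Mir193 and Mir365b. Of the protein-coding genes in that table, 1, Faul2, has a gene model that spans both hairpins; the table gives neither its exons nor its strand, so whether they lie in an intron, exon or UTR of it was not determined. The nearest protein-coding genes on either side are Rab11fip4 before Mir193 and Utp6 after Mir365b.

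The probes are DNA strings that pair with the 3′ part of each miRNA. They come as series that grow by 1 base at a time; the bases that the shortest probe lacks are in capitals.
miR-193a-5p, 11 bases: tcatcttgccc
miR-193a-5p, 12 bases: tcatcttgcccG
miR-193a-5p, 13 bases: tcatcttgcccGC
miR-193a-5p, 14 bases: tcatcttgcccGCA
miR-193a-3p, 16 bases: actgggactttgtagg
miR-193a-3p, 17 bases: actgggactttgtaggC
miR-365-3p, 20 bases: ataaggatttttaggggcat
miR-365-3p, 21 bases: ataaggatttttaggggcatT
The longest probe pairs with bases 9 to 22 of miR-193a-5p, bases 6 to 22 of miR-193a-3p and bases 2 to 22 of miR-365-3p. All 3 positions at which miR-193b-3p and its hairpin differ from miR-193a-3p fall within bases 6 to 22. Signal that miR-193b-3p may give on these probes was not measured. For each miRNA the probe with the highest mean signal was used, and it was the longest in all 3.

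Values below are processed signals divided by a scale for each array, and are given on the log2 scale or in scaled intensity units. A probe's level depends on the probe as well as on the RNA, so levels of different miRNAs are not compared as amounts of RNA. A floor of 15.7 units marks the lowest signal above background. Over the 181 tested miRNAs, the median difference of IL-6 minus control was 0.02 on the log2 scale, with a range from -0.50 to 0.64. The median SD was 0.07 in the control group and 0.09 in the IL-6 group. By limma with Benjamini-Hochberg adjustment at 0.05, 9 were higher (4.97%) and 8 were lower (4.42%). Every IL-6 array lay above every control array in 21 (11.6%). The slide had the controls in 1 row and the IL-6 samples in another, so treatment and position by row cannot be told apart.

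miR-193a-3p, the arm with the miR-193b seed, was at 8.75, 8.93 and 9.57 on the log2 scale on control replicates 1, 2 and 3. With IL-6 it was at 9.49, 9.65, 9.68 and 9.69 on replicates 1 to 4. Control replicates 1 and 2 were low, while control replicate 3 stood among the IL-6 arrays and above IL-6 replicate 1, so the groups overlapped. In scaled units the controls were at 432, 489 and 761 and the IL-6 arrays at 718, 804, 820 and 826. The means were 9.09 ± 0.43 (SD, n = 3) and 9.63 ± 0.09 (SD, n = 4), a difference of 0.54 ± 0.20 (SE), or 1.46-fold. The SE, from limma, takes 1 spread for both groups, though their SDs differed. The difference was the second highest of the 181 (rank 2). Leaving out 1 array at a time gave 0.38 without control replicate 1, 0.78 without control replicate 3, and values between these without any other.

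Each array carried 10 spots of the probe, and their coefficient of variation was between 2.56% and 6.69%. The spots of control replicate 3 ran from 696 to 848 scaled units, all above the highest spot of control replicate 2, at 552, and of control replicate 1, at 450. IL-6 replicate 1, with spots from 663 to 788, overlapped the spots of control replicate 3. The second probe, which is 1 base shorter, gave 6.99, 7.19 and 7.87 in control and 7.82, 8.02, 8.07 and 8.11 with IL-6 on the log2 scale. Its difference was 0.65, with control replicate 3 again above IL-6 replicate 1.

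**Figure D1:**
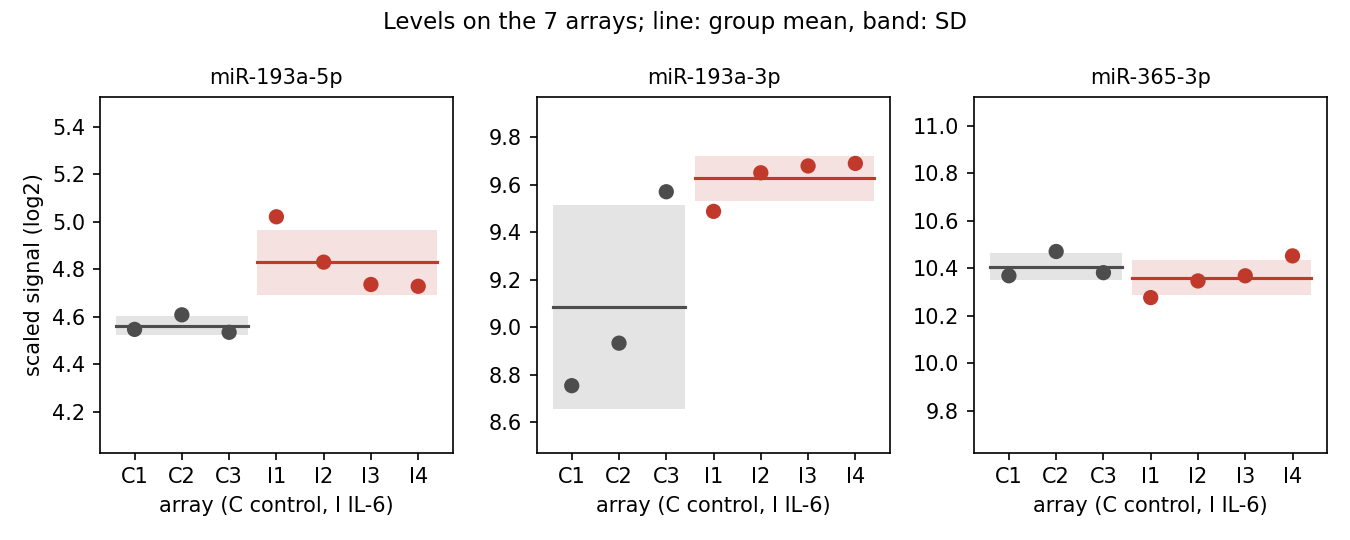
Scaled signal on the log2 scale (y axis, each panel spanning 1.5 units) for miR-193a-5p, miR-193a-3p and miR-365-3p on control arrays (C1 to C3) and IL-6 arrays (I1 to I4); points are arrays, lines are group means and bands are ± SD. For miR-193a-3p, control replicate 3 at 9.57 lies above IL-6 replicate 1 at 9.49, while for miR-193a-5p all IL-6 arrays lie above all controls.

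miR-193a-5p, the other arm of the same hairpin, was at 4.55, 4.61 and 4.53 on the log2 scale in control. With IL-6 it was at 5.02, 4.83, 4.74 and 4.73. On the 14-base probe, which was the one used, every IL-6 array lay above every control array, as in 21 of all 181 tested miRNAs (11.6%). IL-6 replicate 1 was the highest and control replicate 3 the lowest, though the controls spanned only 0.07. In scaled units the controls were at 23.4, 24.4 and 23.2 and the IL-6 arrays at 32.5, 28.4, 26.6 and 26.5. The means were 4.56 ± 0.04 (SD, n = 3) and 4.83 ± 0.14 (SD, n = 4), a difference of 0.27 ± 0.08 (SE), or 20.2% in scaled signal, at rank 12 of 181.

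The signal of miR-193a-5p was close to the floor. With a floor 2 times as high the difference was 0.012, since all arrays but IL-6 replicate 1 then fall to it. The probe had 5 spots on each array, and 34 of its 35 spots over the 7 arrays were well above background. Their coefficient of variation within an array was between 4.13% and 20.4%. On control replicate 2 the highest spot, at 30.4 units, lay above the mean of 3 of the 4 IL-6 arrays, so single spots of the groups overlapped where the array means did not. Of the other probes, the 13-base one was well above background on 2 of 7 arrays, IL-6 replicates 1 and 2, at 20.2 and 17.0 units, and at the floor on 5. The 11-base and 12-base probes had negative processed signals on all 7 arrays. In scaled units the 11-base probe was at -10.6, -11.4 and -9.89 in control and -6.03, -5.01, -8.75 and -9.35 with IL-6. The 12-base probe was at -8.85, -7.86 and -6.93 in control and -2.48, -3.60, -8.26 and -6.27 with IL-6. Both were least negative on IL-6 replicates 1 and 2, where the 14-base probe was highest. The part of background in the difference of the 14-base probe was not tested. Before the floor was applied, the 13-base probe was at 12.8, 15.2 and 13.0 units in control and 20.2, 17.0, 14.8 and 13.1 with IL-6. The groups therefore overlapped on this probe. With the controls and 2 IL-6 arrays at the floor, it had a difference of 0.12, which could not be negative. The 14-base probe was thus the only one of the 4 above background on control arrays. With the mean of all 4 probes, floored values included, its difference was 0.10.

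**Figure D2:**
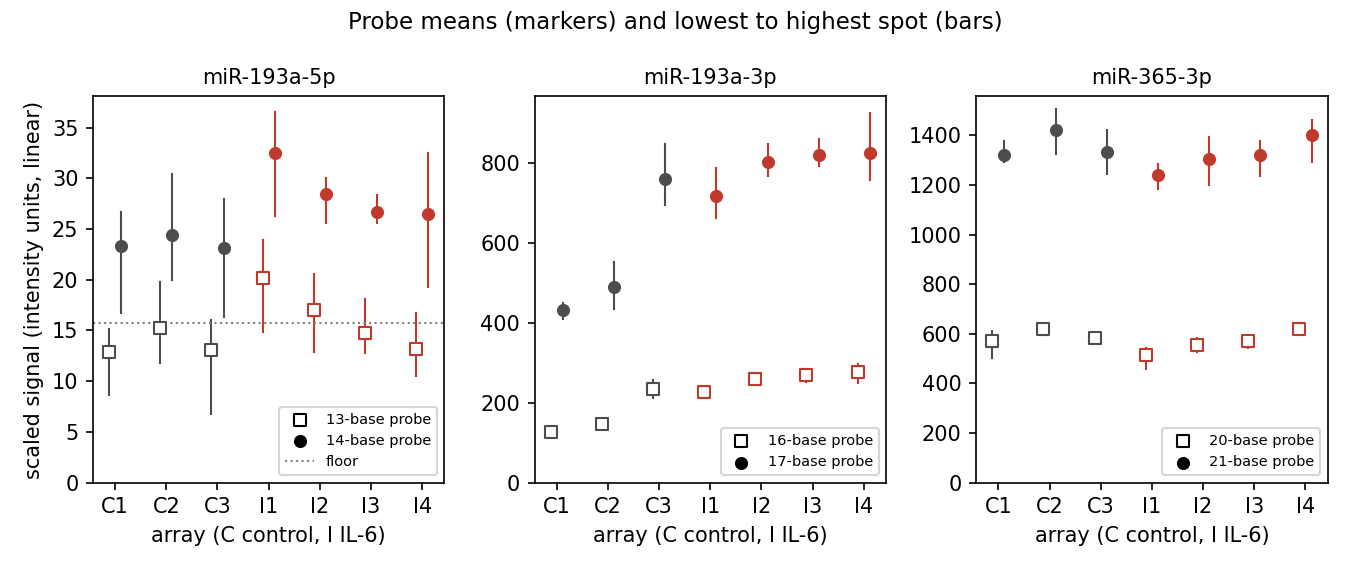
Scaled signal in linear intensity units for the 2 longest probes of miR-193a-5p, miR-193a-3p and miR-365-3p on each array (C control, I IL-6); markers are probe means and bars run from the lowest to the highest spot. Both probes of miR-193a-3p show control replicate 3 at the level of the IL-6 arrays, and the 13-base probe of miR-193a-5p lies near the floor of 15.7 units.

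miR-365-3p, encoded in the neighbouring hairpin, was at 10.37, 10.47 and 10.38 on the log2 scale in control. With IL-6 it was at 10.28, 10.35, 10.37 and 10.45. Its probes read the mature RNA, so any share from another locus, such as the miR-193b and miR-365 cluster, was not told apart. The groups overlapped, with IL-6 replicate 1 the lowest and control replicate 2 the highest array. The means were 10.41 ± 0.06 (SD, n = 3) and 10.36 ± 0.07 (SD, n = 4). The difference was -0.05 ± 0.05 (SE), at rank 125 of 181, within the spread of either group. The second probe gave -0.07. The direction depends on the scaling: the difference was 0.13 without scaling and 0.14 with spike-in scaling, where the median of all tested miRNAs also moved, to 0.17 and 0.18. The difference of miR-193a-5p under these 2 scalings was 0.44 and 0.45, and that of miR-193a-3p was 0.72 and 0.73. The scale of an array relative to the mean array was 0.852 to 1.00 in control and 0.882 to 1.25 with IL-6, so the groups overlapped. The part of array brightness in these values was not tested beyond the scalings.

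Other RNAs of the 2 loci gave no signal. miR-365-5p, the passenger arm of the miR-365 hairpin, was detected on no array, and the highest processed signals of its 2 probes were 0.15 and -2.15. miR-3549 is read from the opposite strand of the miR-193a hairpin, and its 19 bases are the reverse complement of bases 2 to 20 of miR-193a-5p.
miR-3549: aUCUUGCCcgcaaagaccc
It was detected on no array, with highest processed signals of -3.27 and -3.79 for its 2 probes.

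A difference between 2 miRNAs on the same array does not depend on the scale of that array, though it can depend on background where a signal is low. miR-193a-3p minus miR-365-3p was -1.61, -1.54 and -0.81 in control and -0.79, -0.70, -0.69 and -0.76 with IL-6 (log2). All IL-6 arrays lay above all controls here, though control replicate 3 was only 0.02 below the lowest of them. The mean difference between groups was 0.59.

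miR-193a-5p minus miR-365-3p was -5.82, -5.86 and -5.85 in control and -5.26, -5.52, -5.63 and -5.72 with IL-6, a mean difference of 0.31 with no overlap. The controls lay within 0.04 of each other. Since miR-193a-5p was close to the floor, background may enter these values, which was not tested. These differences do not show which miRNA of a pair moved, and how often other pairs have no overlap was not determined.

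Within the groups, the 2 arms of miR-193a were not seen to follow each other, though miR-193a-5p was close to the floor. miR-193a-5p minus miR-193a-3p was -4.21, -4.33 and -5.04 in control and -4.47, -4.82, -4.94 and -4.96 with IL-6, and the groups overlapped. Over the 7 arrays, which share their scaling, Pearson's r between the arms was 0.48 and Spearman's rho 0.32. After the group means were subtracted r was -0.35. Control replicate 3 was the highest control for the 3p arm and the lowest for the 5p arm. The 5p controls spanned only 0.07, less than the SE of 0.11 to 0.13 from their spots, so their order was not resolved. IL-6 replicate 1 was the lowest IL-6 array for the 3p arm and the highest for the 5p arm. Between miR-193a-3p and miR-365-3p r was -0.23, and between miR-193a-5p and miR-365-3p it was -0.63.

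The miRNAs whose levels over the 7 arrays were most like those of each of the 3 were taken from 167 others detected on all arrays, by Pearson's r. These are descriptions over arrays that share scaling and treatment. For miR-193a-5p they were miR-382-5p, a member of the imprinted Dlk1-Dio3 cluster (r = 0.99), miR-181a-1-3p (0.93) and miR-181b-5p (0.93). After subtraction of the group means the values were 0.99, 0.86 and 0.75. Without IL-6 replicate 1 and control replicate 3, the arrays farthest from its median, they were 0.99, 0.91 and 0.77. miR-382-5p was at 5.59, 5.64 and 5.57 in control and at 6.09, 5.92, 5.81 and 5.85 with IL-6, with IL-6 replicate 1 the highest as for miR-193a-5p. The differences of these 3 similar miRNAs were 0.32 ± 0.07, 0.34 ± 0.05 and 0.29 ± 0.07 (log2, SE). Their limma p-values were 0.0447, 0.0143 and 0.0532 (Benjamini-Hochberg adjusted). As they were chosen for likeness to a miRNA picked on this contrast, these p-values are no support for it.

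For miR-193a-3p the most similar were miR-24-2-5p (r = 0.97), miR-218a-5p (0.96) and miR-136-5p, another Dlk1-Dio3 member (0.95). After the group means were subtracted r was 0.94 for each of them. Without control replicates 1 and 2, the arrays farthest from the median of miR-193a-3p, the values were 0.73, 0.88 and 0.84. The differences of these 3 similar miRNAs were 0.17 ± 0.07, 0.25 ± 0.12 and 0.39 ± 0.20 (log2, SE). None passed the limma test (Benjamini-Hochberg adjusted p = 0.217, 0.236 and 0.286). miR-136-5p was at 5.98, 6.39 and 6.81 in control and between 6.61 and 6.94 with IL-6, with control replicate 3 among the IL-6 arrays. A pattern shared with miR-193a-3p follows from the choice by r. miR-218a-5p, the 1 nerve marker of 3 that was detected, was at 5.56, 5.70 and 6.00 in control and between 5.86 and 6.12 with IL-6; its part in the result for miR-193a-3p was not tested.

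For miR-365-3p the most similar were miR-125b-5p (r = 0.93), miR-17-5p (0.89) and miR-28-5p (0.88), or 0.80, 0.68 and 0.76 when the arrays farthest from the median of miR-365-3p, control replicate 2 and IL-6 replicate 1, were dropped. Spearman's rho for miR-17-5p was 0.61. Their differences were small: -0.04 ± 0.03, 0.0016 ± 0.07 and -0.05 ± 0.08 (log2, SE). None of the 3 passed the limma test (Benjamini-Hochberg adjusted p = 0.505, 1 and 0.788). They were chosen for likeness to miR-365-3p over the same arrays, so small differences were close to given by the choice.

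**Figure D3:**
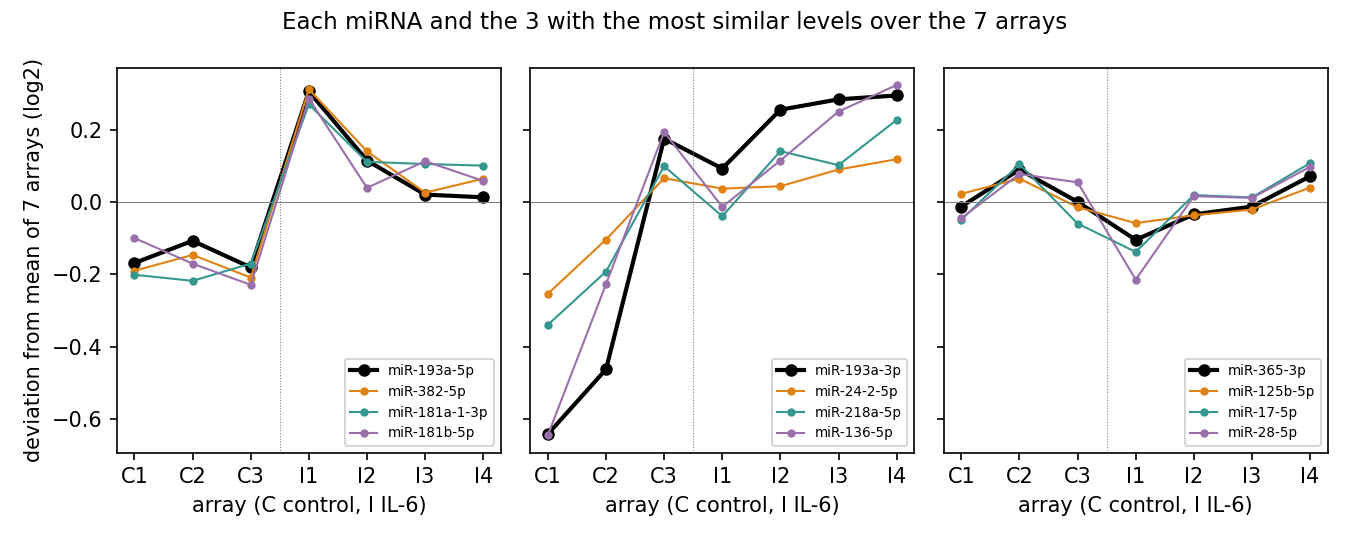
Deviation from the mean of the 7 arrays (log2) for miR-193a-5p, miR-193a-3p and miR-365-3p (black) and for the 3 miRNAs most similar to each (colours); lines join the arrays of 1 miRNA (C control, I IL-6), and the dotted line parts the groups. miR-193a-3p and its 3 neighbours by correlation are low on control replicates 1 and 2 and high on control replicate 3, while miR-193a-5p peaks on IL-6 replicate 1.

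The control arrays of miR-193a-3p differed more than those of nearly all tested miRNAs: its control SD of 0.43 was the third highest of 181 (rank 3), after miR-3584-5p (0.50) and miR-466b-5p (0.45). The SD of miR-193a-5p had rank 132 and that of miR-365-3p rank 114. Control replicate 3 was 0.73 above the mean of the other controls for miR-193a-3p and 0.06 below the IL-6 mean. The median of this gap over the tested miRNAs was 0.04, and it was above 0.5 for 7 of them.

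The 7 were named after their values were seen. Of them, miR-322-5p (gap 0.73), miR-542-3p (0.68), miR-322-3p (0.67) and miR-450a-5p (0.55) belong to 1 cluster, which is known to act in muscle differentiation and the cell cycle. The others were miR-466b-5p (0.77), miR-193a-3p and miR-136-5p (0.63). For the 4 cluster members the IL-6 arrays sat below control replicate 3, and the differences between groups were -0.10 ± 0.20, -0.06 ± 0.18, -0.14 ± 0.18 and -0.07 ± 0.15 (log2, SE). For miR-193a-3p and miR-136-5p, at 0.54 ± 0.20 and 0.39 ± 0.20, the IL-6 arrays were spread around control replicate 3. The label of control replicate 3 and its part in the result were not tested.

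**Figure D4:**
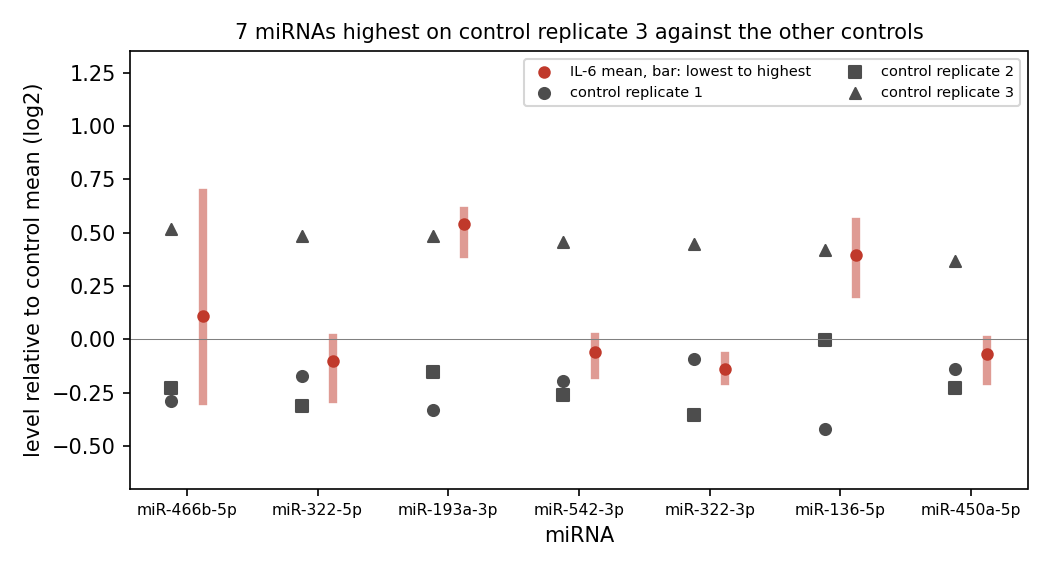
Level relative to the mean of the 3 controls (log2) for the 7 miRNAs in which control replicate 3 exceeded the other controls by more than 0.5; grey symbols are control arrays, red points are IL-6 means and red bars run from the lowest to the highest IL-6 array. For miR-193a-3p the IL-6 mean is 0.06 above control replicate 3, and for the cluster members miR-322-5p, miR-542-3p, miR-322-3p and miR-450a-5p all IL-6 arrays lie below it.

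miRNAs known to promote or restrain brown and beige fat were set beside the 3, since the miR-193b and miR-365 cluster is best known in that setting. Of 12 miRNAs listed as promoting, 11 were on the array and 8 were tested; 0 were higher and 0 lower by limma with Benjamini-Hochberg adjustment at 0.05, where 4.97% and 4.42% of all tested miRNAs were, so a count of 0 among 8 is near that background. At an unadjusted p under 0.05, 1 of the 8 passed in limma, miR-22-3p, against 49 of 181 (27.1%). The differences were positive in 4 and negative in 4, with a median of 0.01 and a range from -0.11 to 0.10. miR-22-3p, which is required for thermogenic fat, had -0.10 ± 0.04 (SE; limma, Benjamini-Hochberg adjusted p = 0.154). miR-26a-5p and miR-26b-5p, which favour energy-burning adipocytes, had 0.10 ± 0.04 and 0.06 ± 0.12 (limma, adjusted p = 0.200 and 0.839).

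Of 12 listed as restraining, 11 were on the array and 9 were tested, again with 0 higher and 0 lower by limma, near the same background. At an unadjusted p under 0.05, 1 of the 9 passed in limma, miR-27b-3p (-0.13 ± 0.05, SE; Benjamini-Hochberg adjusted p = 0.154), named after its value was seen. Of their differences 5 were positive and 4 negative, with a median of 0.01 and a range from -0.13 to 0.09. miR-125b-5p, a repressor of beige fat formation, had -0.04 ± 0.03, miR-199a-3p -0.04 ± 0.08 and miR-34a-5p 0.02 ± 0.04 (SE; limma, Benjamini-Hochberg adjusted p = 0.505, 0.791 and 0.788). The median of all 181 was 0.02. miR-133a-3p and miR-133b-3p, the muscle miRNAs that restrain brown fat by lowering Prdm16, were detected on no array, and neither were the promoting miR-182, miR-203a-3p and miR-32-5p.

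**Figure D5:**
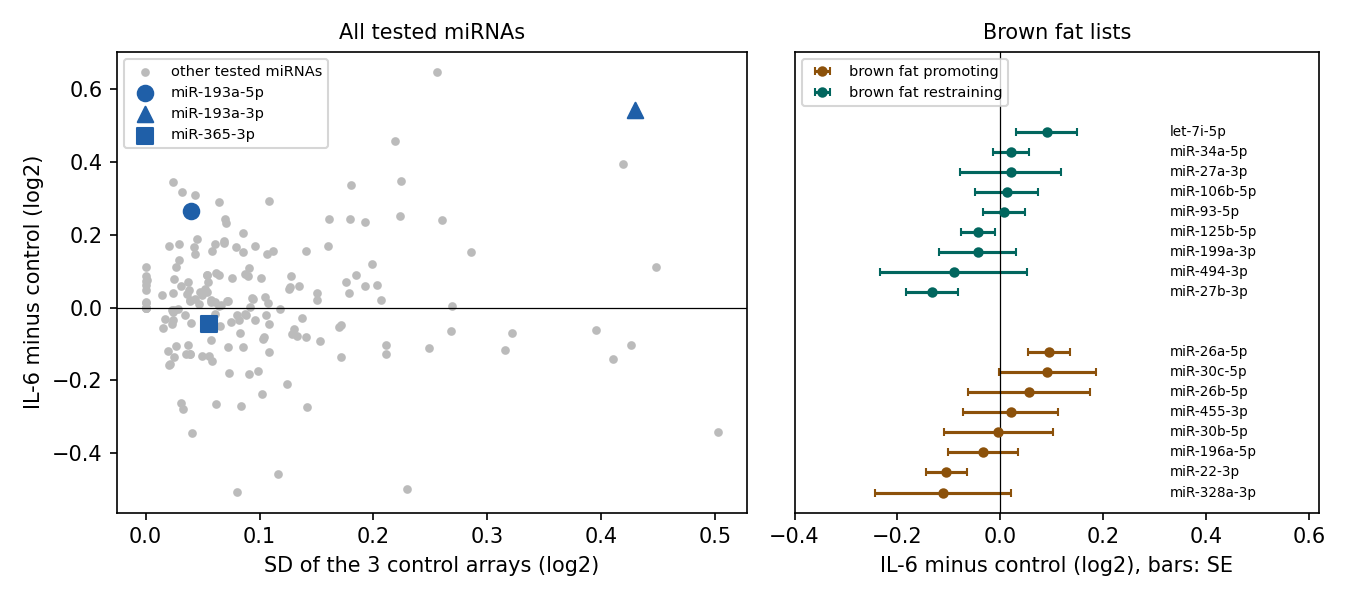
Left, difference of IL-6 minus control (log2) against the SD of the 3 control arrays for all 181 tested miRNAs, with miR-193a-5p, miR-193a-3p and miR-365-3p in blue; right, differences with SE for the tested brown fat promoting and restraining miRNAs. miR-193a-3p joins a high difference (0.54) with a high control SD (0.43), and the list members lie between -0.13 and 0.10.

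The labelled cell type was checked against marker miRNAs. None of 7 muscle miRNAs (miR-499-5p, both miR-208 3p forms, miR-206-3p, both miR-133 3p forms and miR-1-3p) was detected on any array, and their highest scaled signal, 9.22 units, was below the floor. All 5 fibroblast and smooth muscle markers were detected on all 7 arrays, with control means of 9.41 to 13.63 on the log2 scale. Together with the undetected muscle miRNAs, this did not bear out the muscle label. The identity of the cells was not tested further. By limma 0 of these 5 markers passed, near the background of 4.97% and 4.42% called over all tested miRNAs. At an unadjusted p under 0.05 in limma, 0 of the 5 markers passed, against 27.1% of all tested miRNAs. The log2 of their summed signal was 14.51 to 14.62 in control and 14.34 to 14.56 with IL-6. Of the adipocyte-enriched markers, miR-196a-5p and miR-455-3p were tested and did not pass, with a summed level of 7.38 on control arrays and 7.19 to 7.42 on IL-6 arrays, and miR-378a-5p was detected on no array. Markers of endothelium (2) and epithelium (7) were detected on no array, and of 6 blood markers only miR-223-3p was, on 1 array. In a bulk RNA sample, fewer cells of a type and less of an RNA per cell cannot be told apart.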

How the data were processed

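Total RNA of 7 samples (3 control, 4 IL-6) was measured on 1-colour rat miRNA arrays. Per the file headers and the submitters' processing notes, Agilent Feature Extraction 10.10.1.1 made the spot intensities in the deposited scanner files: background-subtracted, linear and not scaled between arrays. On all 15095 spots the deposited value table held the same intensities as the total probe signal column (tolerance 0.001), so it is linear, not centred and not scaled, with column medians of -1.35 to 0.10. Probe positions refer to rn4, per the file headers.

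Control spots and outlier spots (2.88% to 3.84% of 14380 others) were left out; none was saturated. The mean over the spots of each probe was divided by an array's 75th percentile, taken from the 268 probes with at least a share of 0.5 of their spots well above background on each array. Values under 15.7 units, the median of the arrays' lowest scaled signals above background, were set to it before log2 was taken. The brightest probe stood for a miRNA. The SE came from lmFit and eBayes of limma 3.58.1 (R 4.3.3; Benjamini-Hochberg over 181 miRNAs, threshold 0.05), which was also tested on simulated data. Between 174 and 207 miRNAs were detected per array, and the number of arrays limits the precision (median SE 0.07).

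The 3 members and the lists were chosen with earlier results of these data known. Named were the 3 miRNAs, those sharing a seed or hairpin with them, the 3 most correlated with each, and from each list those past the threshold and then those of brightest probe until 3 were named, which orders probes and not amounts of RNA. miR-155-5p and miR-378a-3p were also not analysed here. Alternatives were other scalings, background, probe summaries, floors, filters, limma settings, blocks, and leaving out each array; the fit without 2 arrays, control replicate 3 and IL-6 replicate 1, was chosen after seeing the data. All arrays shared 1 slide and 1 scan time.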

Additional observations from a re-analysis of the deposited data

Results flagged for a closer look

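For 28 miRNAs, the distance of the highest or lowest IL-6 array from the next one was divided by the range of the 4. In 5 this ratio passed Dixon's critical value, which chance exceeds in about 1 in 20 groups. miR-193a-5p, miR-193a-3p and miR-365-3p were not among them; miR-193a-3p came closest, with IL-6 replicate 1 at a ratio of 0.805. miR-181a-1-3p, one of the miRNAs most similar to miR-193a-5p, had IL-6 replicate 1 apart, at 6.27 against 6.10 to 6.11 on the log2 scale (ratio 0.938). The same array stood apart for miR-26b-5p, at 8.98 against 9.36 to 9.38 (0.944), let-7i-5p, at 10.06 against 9.86 to 9.88 (0.941), and miR-494-3p, at 9.16 against 8.66 to 8.72 (0.879). IL-6 replicate 4 stood apart for miR-106b-5p, at 6.61 against 6.46 to 6.49 (0.855).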

How the results depend on the processing

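The difference of miR-193a-3p was positive in all 27 alternatives, from 0.38 to 0.83. The highest was without control replicate 3 and IL-6 replicate 1 together, chosen after seeing the data. It was 0.40 ± 0.35 (SE) with the 75th percentile over all probes. Both floors, both filters and the limma setting (trend and robust) could not change it. The replicate block gave the same 0.52 as leaving out IL-6 replicate 4. Since both arms were picked for leaning up in these data, counts of positive differences are a description. The difference of miR-193a-5p was positive in all 26, but was 0.12 ± 0.25 (SE) with the 75th percentile over all probes. With normexp it was 0.16 ± 0.14 and with the mean of all probes 0.10 ± 0.04. Without scaling it was 0.44 ± 0.11, with spike-in scaling 0.45 ± 0.10 and with total gene signal 0.46 ± 0.20. With a floor 2 times as high it was 0.012 ± 0.014. It was 0.20 to 0.30 when 1 array was left out. That of miR-365-3p was negative in 25 of 27: -0.19 with the 75th percentile over all probes, 0.13 without scaling, 0.14 with spike-in scaling and -0.45 relative to the miR-193a arms. These 3 scalings put the median over the tested miRNAs at -0.12, 0.17 and 0.18. The cause of the other changes was not tested.

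Against 9 higher and 8 lower miRNAs by limma, the counts over all miRNAs tested in a setting, which need not be the same miRNAs, were 0 and 0 under the 75th percentile over all probes, no scaling, normexp, no filter or slide column as a block (unadjusted p under 0.05 in 2, 29, 7, 41 and 52), 4 and 0 with spike-in scaling, and 1 and 0 with total gene signal. Median-ratio scaling of the probes gave 14 lower, a floor 2 times as high 5 lower, and leaving out the 2 arrays 19 higher. The share higher among calls was 52.9%, and 38.9% with quantile normalization, 44.0% with the median of probe ratios, 100% with spike-in scaling or total gene signal, 33.3% with outlier spots kept, 0% without control replicate 2 or with the replicate block, and 16.7% when IL-6 replicate 4 was left out. Several of these shares rest on few calls. There were 4 higher and 0 lower with spike-in scaling, and 1 and 0 with total gene signal. There were 0 higher and 2 lower without control replicate 2, and 0 and 3 with the replicate block. The counts were 1 and 5 without IL-6 replicate 4. Leaving out 1 array gave 0 to 10 higher and 0 to 7 lower, with 0 of both without control replicate 1 or IL-6 replicate 3. In the brown fat lists 1 promoting miRNA was higher without the 2 arrays, and 1 restraining was lower with the median of probe ratios.

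Whether replicate numbers pair the arrays was not settled. Deviations from group means correlated at 0.52, -0.18 and 0.26 for equal numbers, and from -0.44 to 0.29 for different numbers. Both replicate 1 arrays, which gave 0.52, were in slide column 1. With a replicate block 0 were higher and 3 lower by limma, and the difference of miR-193a-3p was 0.52. Signal over background limits miR-193a-5p, which lay near the floor.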
